A study of Caenorhabditis elegans with 104 samples.

Results

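Among single Caenorhabditis elegans worms aged 12 to 24 days, 8 of 74 had whole-body transcript profiles that were unlike those of other worms of the same age. With 13 worms of day 4 and 17 of day 8 these 74 make up the series. They were chosen by their own expression values. For each worm the Pearson correlation with every other worm of its age was taken over 18889 genes and averaged, and a worm counted as atypical when this mean lay more than 3 scaled median absolute deviations below the median of its age. The other 66 worms of these ages are called typical here. Because every gene entered the choice, the gene differences between atypical and typical worms are a description of the chosen worms and carry no test.

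The series followed one cohort of wild-type N2 hermaphrodites at 20 °C on the bacterial food OP50, started from eggs laid within 2 hours and divided over 7 plates of 100 worms. From them 20 worms per age were taken at random, put on film and frozen one by one. Linear amplification of the RNA was done in 2 rounds, and RNA judged poor at that stage was dropped. Each worm was labelled with Cy5 and hybridised against a Cy3-labelled pool of RNA from 15 worms 4 days old, with no dye swap. The atypical worms comprised 1 of 17 worms on day 12, 2 of 17 on day 14, 3 of 17 on day 16, 1 of 14 on day 20 and 1 of 9 on day 24. The same ages held 16, 15, 14, 13 and 8 typical worms, and day 4 and day 8 held 13 and 17 worms, to which the choice was not applied. All groups were untreated and of one genotype, and differed in age alone. Each age was one harvest of the cohort, so age and harvest day cannot be told apart. Replicate numbers follow the order of deposition and only name the worms.

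Expression is given as the ratio of worm to day 4 pool on the log2 scale, so that 0 means the pool's level and 1 means double the pool's signal. The log base and the direction of the ratio were taken from the default of the array software and were not stated in the sources used here. A whole worm holds all its tissues, and a transcript that is low because its cells are fewer cannot be told apart from one that is low because each cell holds less of it.

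An adult hermaphrodite makes sperm first and then oocytes, and its gonad holds a large part of its nuclei while it is reproducing. Later the gonad shrinks, the gut and cuticle deteriorate, and worms of one genotype and one plate come to differ in movement and remaining life. The X chromosome is largely silent in most of the germline, where its genes are kept off by chromatin regulators, so that X-linked transcripts come mainly from the soma and from late oocytes.

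The 8 worms stood apart from their ages to different degrees. Day 16 replicate 13 had a mean correlation of 0.234 with the worms of its age at -7.71 scaled deviations from the median. Day 16 replicate 12 had a mean correlation of 0.249 and day 16 replicate 7 one of 0.296. Against these, the 14 typical worms of day 16 ranged over 0.392 to 0.489. Day 14 replicate 16 had a mean correlation of 0.229, day 12 replicate 12 one of 0.233, day 24 replicate 5 one of 0.358 and day 20 replicate 2 one of 0.375. Day 14 replicate 15, at 0.285, lay at -3.43 scaled deviations from its age median and was the member nearest to the line, which stood at 0.304 for day 14. The nearest worm on the other side was day 20 replicate 12, at 0.413 and -2.41 scaled deviations from its median. No worm lay between -2.41 and -3.43 scaled deviations. When the same procedure was run on the younger worms it marked 0 of 13 on day 4 and 0 of 17 on day 8.

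**Figure D1:**
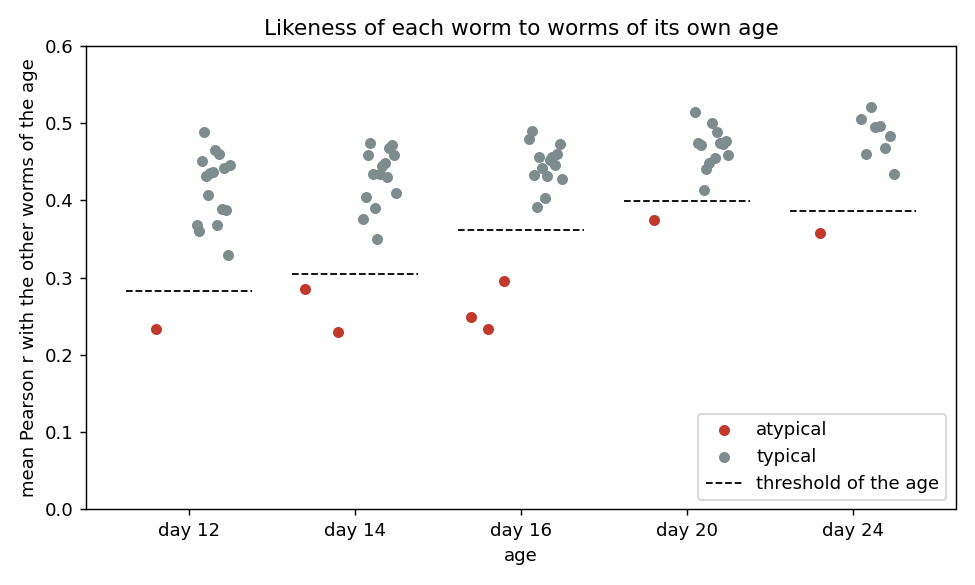
Mean Pearson correlation of each worm with the other worms of its age (vertical axis, no unit) for days 12 to 24 (horizontal axis), atypical worms in red left of typical worms in grey, with the threshold of each age as a dashed line. The 3 atypical worms of day 16 sit between 0.234 and 0.296, below the day 16 line, and the atypical worms of days 20 and 24, at 0.375 and 0.358, sit just below theirs.

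The arrays themselves had a like overall spread. The median absolute deviation of the ratios on one array was 0.582 to 0.589 for atypical worms and 0.583 to 0.601 for typical worms. Array medians were between -0.03 and 0.01 in both groups. Around the mean of the typical worms of their age, however, the ratios scattered more widely in atypical worms (median absolute deviation 0.499, 0.612 and 0.688 as lowest, median and highest) than in typical worms (0.329, 0.406 and 0.522). Genes at least 2 log2 units below the typical mean of the age numbered 515 to 1556 in an atypical worm, with a median of 953.5, and 87 to 686 in a typical worm, with a median of 187. Genes at least 2 log2 units above it numbered 247 to 491 in an atypical worm and 100 to 405 in a typical worm. The departures therefore ran downward more often than upward.

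Measures of the arrays were tested by exact permutation of the labels within each age, over 198092160 arrangements, two-sided, and adjusted by Benjamini-Hochberg over 3 tests. The count of probes without a value and the number in the array's title did not enter the choice. Probes without a value averaged 138.4 ± 77.4 on atypical arrays and 117.2 ± 72.6 on typical arrays (SD, n = 8 and 66), a difference smaller than the spread (exact p = 0.501, adjusted 0.501). The number in the array's title, whose meaning the labels do not give, lay on average 17.3 above the age mean in atypical worms, with 5 of 8 above it (exact p = 0.190, adjusted 0.285). The distance between probes of 1 gene, a measure of how well repeated readings on one array match, was added after the data had been seen. It averaged 0.430 ± 0.014 log2 units on atypical arrays and 0.416 ± 0.016 on typical arrays, and lay above the age mean in 6 of 8 atypical worms (exact p = 0.0233, adjusted 0.0698). This distance was taken from the same probe ratios whose gene means entered the choice, so its test is not independent of the choice. None of the 3 passed 0.05 after adjustment. That last measure passed it when day 14 replicate 15 or day 16 replicate 12 was left out (adjusted exact p = 0.0208 and 0.0249), and whether the quality of these arrays has a part in the gene differences was not tested. Each p-value is the share of arrangements whose summed deviation lay at least as far from its expected value, and covers the worms of this cohort only.

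The departures of the atypical worms were alike in part. After each gene was centred on its age mean, the 28 pairs of atypical worms correlated at 0.054 to 0.365 with a median of 0.192. Pairs of an atypical and a typical worm had a median of -0.055, and pairs of typical worms a median of -0.005. These correlations run over genes, which are not independent, all arrays share the one reference pool, and the choice of worms favours shared departures from the age mean. Day 16 replicate 12 and day 14 replicate 16 were the most alike pair at 0.365. Day 14 replicate 15 was the least like the rest, with a median of 0.094 over its pairs.

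Uncentred profiles gave a further comparison. The mean correlation with day 8 worms was 0.224 to 0.281 for atypical worms (median 0.247) and 0.174 to 0.298 for typical worms (median 0.225), so the groups overlapped. With day 4 worms it was 0.071 to 0.159 for atypical worms and 0.071 to 0.153 for typical worms. In 4 of 8 atypical worms, namely day 12 replicate 12, day 14 replicate 16 and day 16 replicates 12 and 13, the correlation with day 8 was higher than with the typical worms of their own age, against 0 of 66 typical worms. The mean correlation with atypical worms was 0.229 to 0.374 for atypical worms and 0.212 to 0.382 for typical worms, which also overlapped. In 5 of 8 atypical worms it was higher than the correlation with typical worms of their own age, again against 0 of 66 typical worms. Low correlation with the own age is what chose the worms and bears on both counts.

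More genes were lower than higher in atypical worms. Over all genes, 1506 of 18889 were at least 1 log2 unit (2-fold) lower in atypical than in typical worms (7.97%) and 368 were at least 1 log2 unit higher (1.95%), or 9.92% in either direction. The median difference over all genes was -0.03. The lower genes had a median ratio of -0.52 in atypical worms, 0.90 in typical worms, 0.03 on day 8 and -0.07 on day 4, and the higher genes 0.54, -0.65, 0.07 and -0.21. After quantile normalization 549 genes were higher and 1069 lower. Of 18077 genes with a value in every atypical worm, 1076 lay below the age mean in all 8 (5.95%) and 823 above it in all 8 (4.55%). Since the choice used these same ratios, nothing is read from these shares.

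After centring on the age mean, 3 genes (0.0166%) had all 8 atypical worms below every typical worm, and 0 genes had all 8 above. These 3 were picked out after their values were seen. For hmg-11, which encodes a protein of the high-mobility-group type, the atypical worms had ratios of -0.68, 0.89, -0.43, 0.56, -0.17, 1.01, 0.30 and 0.48, in order of age, while typical worms ran from 1.46 through a median of 3.04 to 4.77. For bra-1, named after binding to a receptor of the BMP type, the atypical ratios were -0.68, -0.28, -0.70, -0.02, -0.43, -0.78, -0.38 and -0.07, and typical worms ran from 0.11 through 2.44 to 3.97. The remaining one, F28H1.1, had -0.02, -0.01, -0.77, 0.43, -0.51, -0.40, 0.17 and -0.24 in atypical worms, with typical worms from 0.56 through 2.27 to 4.20. The atypical means of 0.25 for hmg-11, -0.42 for bra-1 and -0.17 for F28H1.1 lay below the day 8 means, which were 0.67, 0.31 and 0.42 in the same order. The day 4 means were -0.18 for hmg-11, -0.03 for bra-1 and -0.71 for F28H1.1, so the atypical worms were about as near to day 4 as to day 8, and for bra-1 nearer to day 4.

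The 12 named genes with the largest negative difference lay below the age mean in all 8 atypical worms. Leading them was tatn-1, the tyrosine aminotransferase of tyrosine breakdown. Its ratios in atypical worms, in order of age, were -5.51, -4.05, -2.68, -3.25, -6.04, -6.26, -1.07 and -4.19, and in typical worms they ran from -4.73 through -0.44 to 2.90, a difference of -3.38 ± 1.38 (SD over atypical worms). The day 20 worm was the least low, and 3 of the 8 were below every typical worm.

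The linker histone gene his-24 showed a tighter group. Atypical worms had ratios of 0.54, 1.476, -0.64, 0.09, -0.59, -0.68, -0.44 and 0.48, and typical worms ran from 1.47 through 3.22 to 5.58, a difference of -2.98 ± 0.70. All but the first worm of day 14 (replicate 15) were below every typical worm. The caveolin gene cav-1, for a coat protein of membrane pits, had -0.42, 1.16, -0.11, 0.44, -0.10, 0.87, -0.79 and 0.21 in atypical worms against a typical range of 0.84 to 5.27 with a median of 3.48, a difference of -3.16 ± 0.72. Here 6 of the 8 lay below every typical worm.

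Other genes of this group differed by similar amounts with wider scatter. For lbp-1, a secreted fatty-acid-binding protein, atypical worms ran from -3.09 through a median of -0.997 to 0.31 and typical worms from -0.16 through 1.98 to 4.31. For odc-1, the ornithine decarboxylase that opens polyamine synthesis, atypical worms ran from -1.87 through 0.27 to 1.47 and typical worms from -0.27 through 3.19 to 5.71. For numr-1, a metal-responsive nuclear protein, atypical worms ran from -0.79 through 0.70 to 2.92 and typical worms from -1.20 through 4.06 to 8.74. The groups overlapped in all 3 genes, most for numr-1, whose typical range is the widest of the 3.

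The rest of the 12 were act-5, the actin of the gut's microvilli, the cytochrome P450 gene cyp-14A5, the F-box gene fbxb-60, the homeobox gene unc-39, and the C-type lectin genes clec-196 and clec-266. Their differences were between -3.14 for cyp-14A5 and -2.85 for both lectin genes. For clec-196, atypical worms ran from -1.60 through -0.60 to 0.68 and typical worms from 0.08 through 2.19 to 4.52, and 7 of 8 atypical worms lay below every typical one. For act-5 both groups were below the pool, with atypical worms from -7.73 through -3.85 to -1.56 and typical worms from -6.51 through -1.104 to 2.35.

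**Figure D2:**
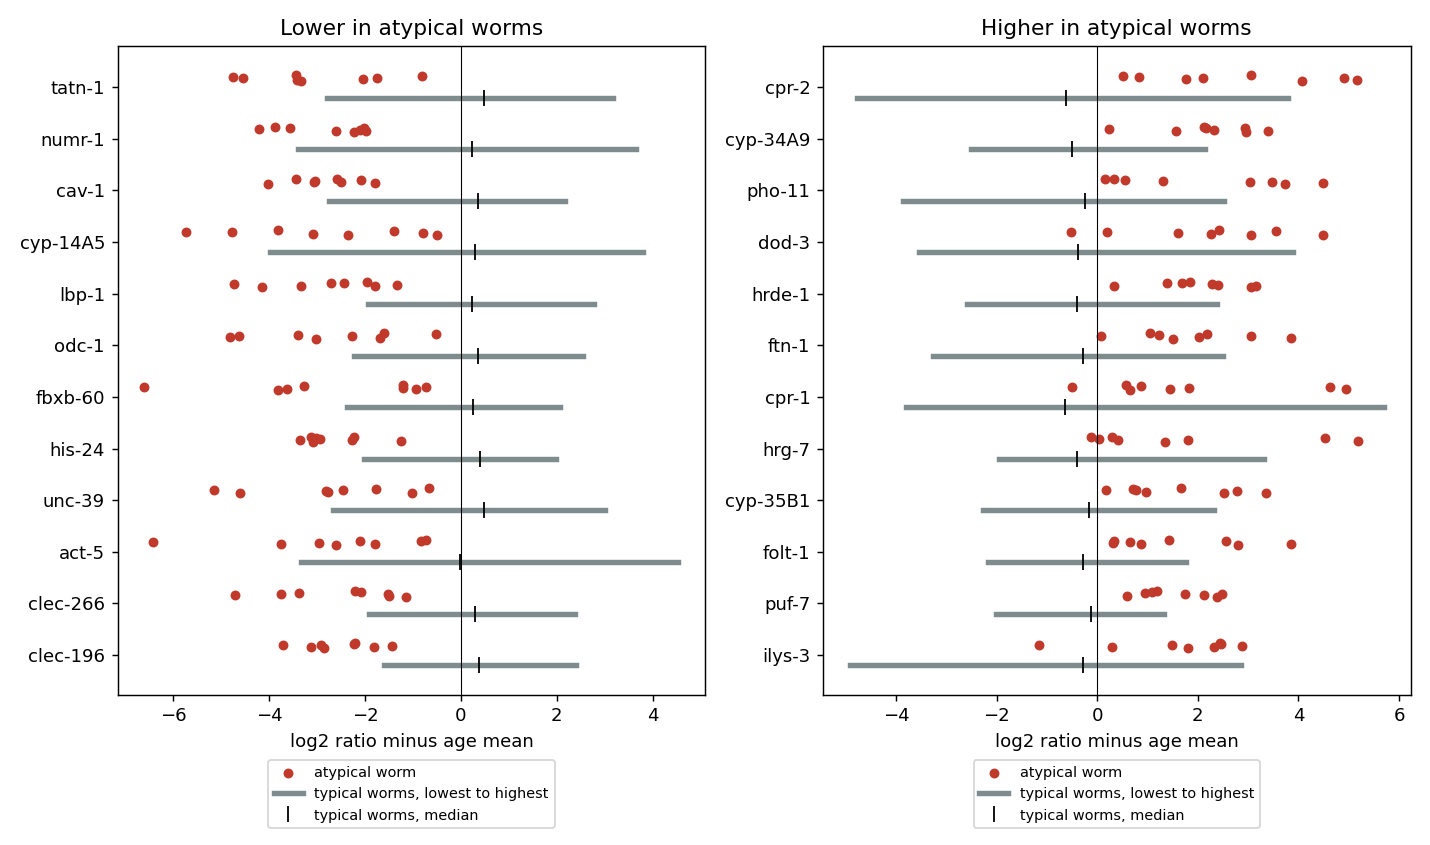
Log2 ratio minus the age mean (horizontal axis) for the 12 named genes lowest (left) and the 12 highest (right) in atypical worms, with each atypical worm as a red point above the typical range in grey and the typical median as a black tick. All 8 points lie below 0 for each of the 12 genes on the left, and for 8 of the 12 on the right all 8 lie above 0.

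The 12 named genes with the largest positive difference included genes for proteases, cytochrome P450 enzymes and iron storage. The cathepsin B-like protease gene cpr-2 had ratios of 7.06, 6.85, 3.46, 7.59, 4.78, 3.52, 1.40 and 4.26 in atypical worms, in order of age, against -3.08 through 1.23 to 6.47 in typical worms, a difference of 3.14 ± 1.79. The cytochrome P450 gene cyp-34A9 had 3.31, 3.61, 1.79, 3.09, 0.99, 3.69, 0.93 and 1.57 in atypical worms against -2.30 through -0.54 to 2.75 in typical worms, a difference of 2.48 ± 0.99. The ferritin gene ftn-1, for iron storage, had 3.81, 5.52, 3.68, 4.86, 1.87, 3.02, 2.39 and 1.44 in atypical worms against -0.99 through 1.11 to 4.80 in typical worms, a difference of 2.096 ± 1.19. All 3 were above the age mean in all 8 worms, and each also overlapped the typical range. The day 8 means were 1.20 for cpr-2, 3.22 for cyp-34A9 and 3.89 for ftn-1.

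A germline gene and an RNA-binding gene were in the same group with less scatter. The nuclear Argonaute gene hrde-1, which acts in inherited silencing in germ cells, had 2.84, -0.01, 2.80, 2.28, 2.18, 1.58, 1.40 and 1.66 in atypical worms against -2.86 through -0.52 to 2.16 in typical worms, a difference of 2.26 ± 0.92. The Pumilio-family gene puf-7 had 2.21, 0.44, 1.98, 1.482, 2.22, 0.69, 0.89 and 0.73 in atypical worms against -2.27 through -0.30 to 1.15 in typical worms, a difference of 1.76 ± 0.71. In both, day 14 replicate 15 was the lowest of the 8.

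The others were pho-11 (acid phosphatase), dod-3, cpr-1 (cathepsin B-like), hrg-7, cyp-35B1, folt-1 (folate transport) and ilys-3 (lysozyme), with differences from 2.40 for pho-11 to 1.75 for ilys-3. For cpr-1 the atypical worms ran from -2.17 through 0.18 to 3.79, inside the typical range of -4.96 to 5.23, and the 8 worms did not form one level. Of the 24 genes, 1 has several probes, and each of the others rests on 1 probe.

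Seen by age, transcripts that typical late worms hold far above day 8 were nearer to their levels of day 4 and day 8 in atypical worms. Genes were grouped by changes of at least 2 log2 units between day 4, day 8 and the typical worms of days 12 to 24. The atypical worms were left out of the grouping, but typical values formed the sets and also enter the differences. Low correlation with their age chose the atypical worms, so the values below are a description and no test. The genes that were higher in typical late worms than on day 8, of which 89.9% (beside 7.97% over all genes) were at least 1 log2 unit lower in atypical than in typical worms, had mean ratios of -0.08, 0.62, -0.13, 0.99, -0.33, -0.42, 0.96 and 0.61 in the 8 atypical worms, in order of age. Typical worms of days 12 to 24 averaged 2.199 ± 0.67 (SD, n = 66), with a lowest value of 0.67, day 8 worms averaged -0.15 ± 0.50 (n = 17) and day 4 worms -0.02 ± 0.24 (n = 13). The atypical mean was 0.28 ± 0.58, and 4 of the 8 worms lay between 0.61 and 0.99. Of the 8 atypical worms, 6 were below every typical worm. In turn 4 typical worms, 3 of day 12 and 1 of day 14, were below the highest atypical worm. Leaving out any one atypical worm kept the atypical mean between 0.18 and 0.38.

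Genes that go down after day 8 did not give the same picture. The genes that were lower in typical late worms than on day 8, of which 37 (33.04%, beside 1.95% over all genes) were at least 1 log2 unit higher in atypical than in typical worms and 5 (4.46%, beside 7.97%) lower, had mean ratios of -0.59, 0.29, -1.16, -0.26, -2.37, 0.63, -1.72 and -1.64 in atypical worms. Typical late worms averaged -1.52 ± 0.49, day 8 worms 1.25 ± 0.99 and day 4 worms -0.46 ± 0.74. The sets were formed with typical values, which also enter these differences, so nothing is read from the shares. Day 14 replicate 15 and day 16 replicates 7 and 13 were the highest, and day 16 replicate 12 was below every typical worm, so the atypical worms spread from one side of the typical range to the other.

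Genes that differ between day 4 and day 8 were compared in the same way. The 91 genes that were higher on day 8 averaged 0.98 ± 0.79 in atypical worms, 0.83 ± 0.44 in typical late worms, 2.36 ± 0.93 on day 8 and -0.51 ± 0.38 on day 4. Of them 28 (30.8%, beside 1.95% over all genes) were at least 1 log2 unit higher in atypical than in typical worms. Another 18 (19.8%, beside 7.97%) were at least 1 log2 unit lower. The genes that were lower on day 8 averaged -3.44 ± 0.86 in atypical worms, -2.36 ± 0.54 in typical late worms, -3.08 ± 0.53 on day 8 and -0.20 ± 0.56 on day 4. In that set the atypical worms had the lowest mean of these groups. In it 57 genes (54.8%, beside 7.97% over all genes) were at least 1 log2 unit lower than in typical worms and 0 higher.

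**Figure D3:**
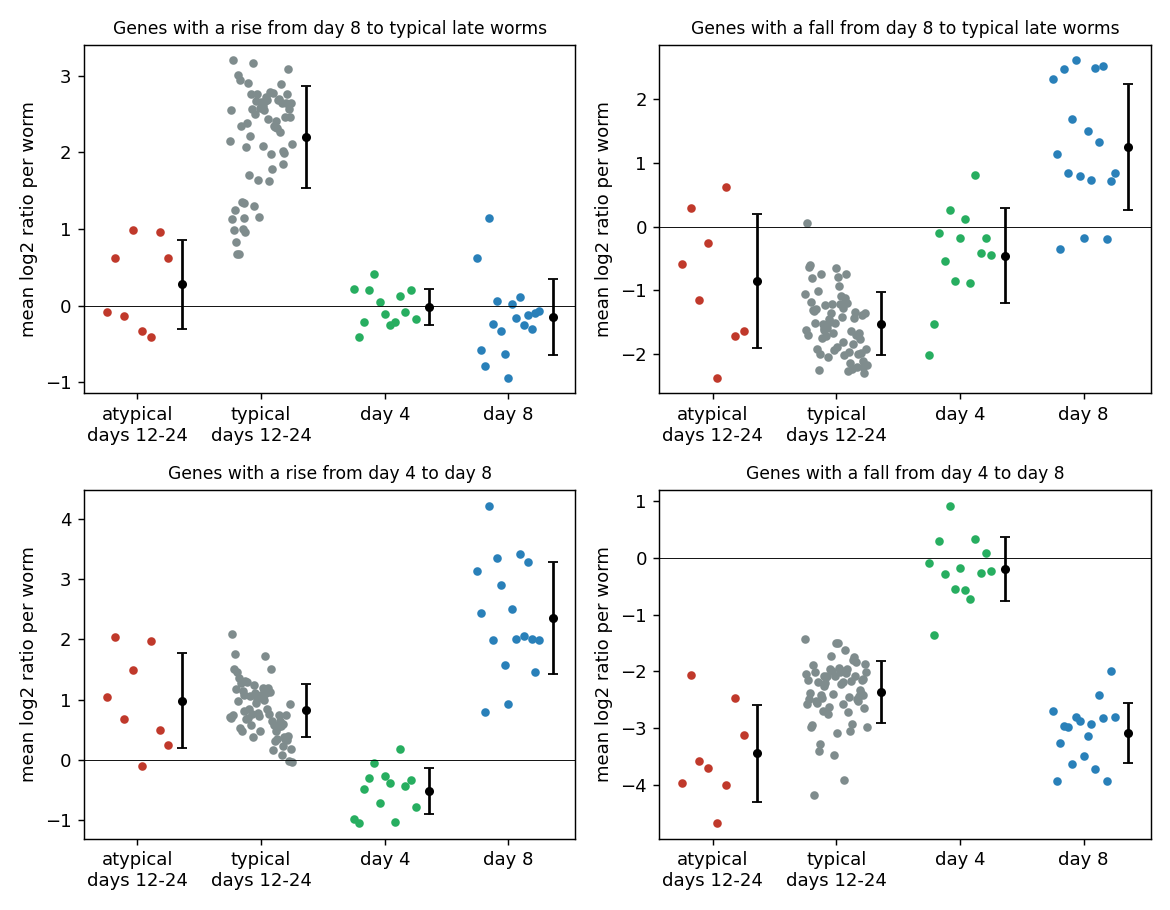
Mean log2 ratio per worm (vertical axis) over 4 sets of genes that changed by at least 2 log2 units between ages, for atypical and typical worms of days 12 to 24, day 4 and day 8 worms (horizontal axis), with the mean and SD of each group in black beside its points. In the first panel the atypical worms average 0.28, with day 8 at -0.15 and day 4 at -0.02, while typical worms average 2.199.

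Counted gene by gene, most of the lower genes were likewise nearer to young worms than to typical late ones. Of the 1506 genes at least 1 log2 unit lower, 1377 (91.4%) had an atypical mean nearer to the day 8 mean than to the typical mean, and 302 (20.1%) lay at least 1 log2 unit beyond both. Of the 368 higher genes, 316 (85.9%) were nearer to day 8, and 51 (13.9%) lay at least 1 log2 unit beyond both. Set against day 4 in place of day 8, 1238 lower genes (82.2%) and 304 higher genes (82.6%) were nearer to day 4 than to typical worms. A gene chosen for being far from typical worms is likely to be nearer to any other group, so these shares describe both sets of genes and are no test.

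The same genes varied together in worms that the choice had not used. Among the 17 worms of day 8, the mean pairwise correlation across worms was 0.143 within the genes lower in atypical worms and 0.103 within the genes higher in them, against 0.001 over all genes. Among the 13 worms of day 4 it was 0.061 and 0.072, against 0.0004 over all genes. Genes with a wide range in old worms were more likely to be chosen, and the worms of an age share a harvest and the reference pool. No set of genes with a like range was compared, so these values are a description.

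Genes of the germline were higher in atypical worms. The germline proliferation and meiosis list of 31 genes had a median difference of 0.84, with 8 genes at least 1 log2 unit higher and 0 lower, beside the median of -0.03 and the 1.95% higher over all genes, and all 31 differences were positive. Its median deviation from the age mean was 0.24 to 0.98 in the 8 worms, and -1.03 to 0.68 in typical worms. The list's median ratio was 0.01 in atypical worms, -0.72 in typical late worms and -0.13 on day 8. The list for oocytes and eggshell held 30 genes, of which 5 were at least 1 log2 unit higher (16.7%) and 0 lower, with a median difference of 0.67 and all 8 worms above the age mean.

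Members of these lists were named mostly for having the largest differences, so their sizes do not describe the lists. The RNA-binding repressor genes fbf-2 and gld-1, which control the switch from division to meiosis, were higher by 1.58 ± 0.68 and 1.44 ± 0.50. The Notch receptor gene glp-1, which keeps germ cells dividing, had ratios of 0.18, 0.30, 0.09, -0.38, 0.46, -0.35, -1.24 and -0.62 in atypical worms, against -3.43 through -1.67 to 0.80 in typical worms, and was higher by 1.41 ± 0.53. The day 20 worm was the lowest of these 8, and all 8 fell within the typical range. The chromosome axis gene htp-1 and the synaptonemal complex gene syp-2 were both higher by 1.24. Among oocyte genes, cbd-1, an eggshell chitin-binding protein, was higher by 1.49 ± 0.59 and cpg-2, an eggshell proteoglycan, by 1.25 ± 0.46. The yolk receptor gene rme-2, at 0.86 ± 0.47, and oma-1, a zinc-finger gene of oocyte maturation, at 0.70 ± 0.44, stayed below 1 log2 unit.

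Defining germline markers share genes with these lists, among them gld-1 and, for oocytes, cbd-1, so their direction is no separate reading. All 5 germline markers had positive differences with 4 of 5 at least 1 log2 unit higher (80.0%, beside 1.95% over all genes). Their median deviations were 0.54 to 1.30 in atypical and -1.79 to 1.22 in typical worms. The P granule gene pgl-1 was higher by 1.08 ± 0.35 and the Vasa-type helicase gene glh-1 by 1.03 ± 0.79. All 5 oocyte markers were also positive, with deviations of 0.34 to 0.88 in atypical worms. Whether the amount of germline differed between the 2 groups was not measured here.

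Sperm and embryo genes gave no single direction. Of 15 major sperm protein genes, which encode the cytoskeletal protein of nematode sperm, 3 were at least 1 log2 unit lower (20.0%) and 0 higher. Over all genes 7.97% were lower and 1.95% higher. The list's median difference was -0.57. The gene msp-10 differed by -1.63 and msp-56 by -1.69. Near-identical copies of this family can share a probe's signal. Other sperm genes had a median difference of 0.08 with 3 of 51 higher (5.88%) and 2 lower (3.92%). Zygotic embryo genes, which switch on after fertilisation, had a median of -0.52 with 7 of 29 lower (24.1%) and 1 higher (3.45%), and 7 of the 8 worms were on the negative side. Without day 14 replicate 16 that median was -0.19. The 5 embryo markers are no separate reading, because their 1 higher gene is the 1 higher gene of that list. They had 0 genes lower, a median difference of 0.27 and all 8 worms above the age mean, at 0.16 to 0.88. Of the 7 lower genes of the zygotic embryo list, 1 is his-24, which is also counted among the histones and the 12 leading genes.

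Histone genes were the list with the largest negative median difference. Of 36 histone genes measured, 19 were at least 1 log2 unit lower in atypical worms (52.8%, beside 7.97% over all genes) and 1 higher, with a median difference of -1.02. The median deviation was -1.09 to -0.29 over the 8 worms, all of them negative, and -0.66 to 0.97 in typical worms. The list's median ratio was 0.01 in atypical worms, 0.80 in typical late worms and -0.04 on day 8. The linker-histone-like genes hil-3 and hil-2 differed by -2.27 ± 0.42 and -2.08 ± 0.53. For hil-3 the atypical worms had 0.08, 0.88, -0.45, 0.17, -0.00, 0.23, -0.05 and -0.04, against 0.44 through 2.30 to 4.94 in typical worms, and only day 14 replicate 15 overlapped. Core histone genes come in near-identical copies, so the values of single core genes such as his-64, at a difference of -1.68, are uncertain.

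Most tissue lists of the soma had negative median differences. Hypodermis and seam, the tissues that lay down the cuticle, had 5 of 28 genes at least 1 log2 unit lower (17.9%) and 0 higher, a median difference of -0.53, and all 8 worms below the age mean. The collagen gene sqt-3 differed by -2.75 ± 2.01, with atypical ratios from -2.89 to 3.06, the hedgehog-related gene wrt-10 by -2.205 ± 0.62 and the GATA factor gene elt-1 by -1.39 ± 0.61. Among 157 cuticle collagen genes, 19 were lower (12%, beside 7.97% over all genes) and 0 higher, while the list's median difference was only -0.14 and became 0.03 after quantile normalization. For dpy-17, another collagen gene, the atypical worms had 1.84, 0.43, 0.33, 2.74, -0.38, 0.50, 2.51 and 1.476, against -0.09 through 3.62 to 5.18 in typical worms, with a day 8 mean of 1.07. For col-160 both groups were far below the pool, at a median of -6.67 in atypical and -4.42 in typical worms.

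Muscle and nerve genes showed small list medians with some larger members. In body wall muscle, 5 of 40 genes were at least 1 log2 unit lower (12.5%) and 0 higher, with a median difference of -0.31 that became -0.15 after quantile normalization. The ryanodine receptor gene unc-68 differed by -1.45 ± 1.21 and the kindlin gene unc-112, of muscle attachment, by -1.09 ± 0.40. For the myosin heavy chain gene unc-54, the difference was -0.35 ± 0.55, and for a second myosin gene, myo-3, it was 0.67 ± 1.12. The 5 muscle markers had no member past 1 log2 unit. The neuronal list of 45 genes had a median of -0.18 with 2 lower, unc-119 among them at -1.18 ± 0.42. Of 92 neuropeptide genes, 12 were lower and 0 higher, with a median of -0.41. Lower genes made up 4.44% of the neuronal list and 13.04% of the neuropeptide list, on either side of the 7.97% over all genes. Such shares near the background are no result about these lists.

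Gut genes had no common direction, and here the atypical worms differed most from one another. The intestine list of 34 genes had 6 higher (17.6%, beside 1.95% over all genes) and 4 lower (11.8%, beside 7.97%). Its median difference of 0.01 changed sign when day 14 replicate 15, day 14 replicate 16, day 16 replicate 13 or day 24 replicate 5 was left out. Its median deviation ran from -1.76 in day 16 replicate 12 to 1.36 in day 14 replicate 15, wider than the -1.30 to 1.19 of the 66 typical worms. For the lysozyme gene lys-7, the atypical ratios were -0.26, -0.64, 1.76, -0.52, -4.04, 1.103, -2.77 and -2.95, with typical worms from -4.39 through -3.02 to 2.93 and a day 8 mean of 2.70. The day 16 replicate 12 worm was lowest, the worms of days 20 and 24 came next, and the other 5 lay between -0.64 and 1.76. The carboxylesterase gene ges-1, a gut marker, had ratios of -3.92 in day 16 replicate 12 and -2.33 to -0.87 in the other 7.

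Yolk and lipid genes were mixed. The 6 vitellogenin genes, for yolk proteins made in the gut, had a median difference of -0.00. The gene vit-2 differed by -0.39 ± 0.98 and vit-6 by 0.01 ± 0.92, while vit-1 differed by -1.19 ± 0.66, and by -0.48 after quantile normalization. The desaturase gene fat-7 was below the age mean in all 8 worms, with atypical ratios from -6.51 through -5.33 to -4.54 and typical ratios from -6.47 through -4.15 to -2.44. Its difference of -1.20 became -0.12 after quantile normalization. The lysosomal lipase genes lipl-1 and lipl-2 were higher by 1.56 ± 1.20 and 1.34 ± 1.62.

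Stress and protein quality genes included members in both directions. Of 12 small heat shock protein genes, some of them near-identical copies that can share a probe's signal, 3 were lower and 1 higher. The inducible gene hsp-16.41 had ratios of 1.34, 2.16, 1.01, 6.27, 4.31, 6.29, 2.72 and 2.91 in atypical worms, so the 3 worms of day 16 were higher than the other 5, while typical worms ran from -1.04 through 4.33 to 8.14. For hsp-70 the same 3 worms, at 4.60, 5.72 and 4.94, were also the highest of the 8, whose difference from typical worms was 0.32 ± 1.25. These ratios were not centred on age, so a level shared by all worms of day 16 enters them. After centring, the small heat shock list had median deviations of 0.16, -0.48 and -0.002 in day 16 replicates 7, 12 and 13. The mitochondrial chaperonin gene hsp-60 was higher by 1.43 ± 0.83 and hsp-3, an endoplasmic reticulum chaperone, differed by -1.24 ± 0.84. In the unfolded protein response list, 7 of 30 genes were lower (23.3%, beside 7.97% over all genes) and 0 higher, with a median of -0.33. Among them were the disulfide isomerase genes pdi-6 at -1.95 ± 1.02 and pdi-2 at -1.48 ± 0.63.

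Proteasome genes were slightly higher in atypical worms. Of 33 genes, 29 had a positive difference, the median was 0.33, and 7 of 8 worms were above the age mean, although only pas-7, a subunit of the core particle, passed 1 log2 unit (1.58 ± 0.74). Autophagy and lysosome genes had 7 of 47 lower (14.9%, beside 7.97% over all genes) and 1 higher (2.13%, beside 1.95%) with a median of -0.24. The ubiquitin-binding receptor gene sqst-1 had 1.29, 2.68, 0.59, 3.27, 0.87, 1.25, 2.02 and 2.28 in atypical worms, against 1.62 through 3.85 to 6.20 in typical worms, a difference of -1.89 ± 0.91, and the groups overlapped through the upper atypical worms.

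Single regulators of immunity and the cell cycle are given beside their lists. Members were named for large differences, so they exceed the list medians by choice. The p38 kinase gene pmk-1, central to defence against bacteria, had -0.54, 0.16, -0.25, -0.48, -1.05, -0.53, 0.39 and -0.01 in atypical worms, against 0.09 through 1.88 to 3.07 in typical worms, a difference of -2.0975 ± 0.47. The bZIP factor gene zip-2, of the pathogen response, differed by -1.88 ± 0.49. In ratio, 6 of the 8 atypical worms lay below every typical worm for pmk-1 and 4 of the 8 for zip-2. The innate immunity list had 16 of 89 genes lower (17.98%, beside 7.97% over all genes) and 6 higher (6.74%, beside 1.95%). Its median of -0.09 became 0.04 after quantile normalization. The cell cycle inhibitor gene cki-1 differed by -2.13 ± 0.54 and the cyclin D gene cyd-1 by -1.64 ± 0.25. The 37 genes of DNA replication and cell cycle had a median of -0.01 with 2 lower (5.41%). The glutathione peroxidase gene gpx-1 differed by -2.06 ± 0.70.

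Lists with few large differences were the 78 cytosolic ribosomal protein genes (median 0.10, 0 higher and 2 lower), the 50 mitochondrial respiration genes (-0.02, 0 and 4), the 229 C-type lectin genes (0.03, 2 and 12) and the 1250 chemoreceptor genes (-0.02, 14 and 40). In the same order 2.56%, 8.00%, 5.24% and 3.20% were lower, beside 7.97% over all genes. The remaining lists had medians between -0.50 for the 11 coelomocyte and uterine genes and 0.12 for the 40 translation factor genes.

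**Figure D4:**
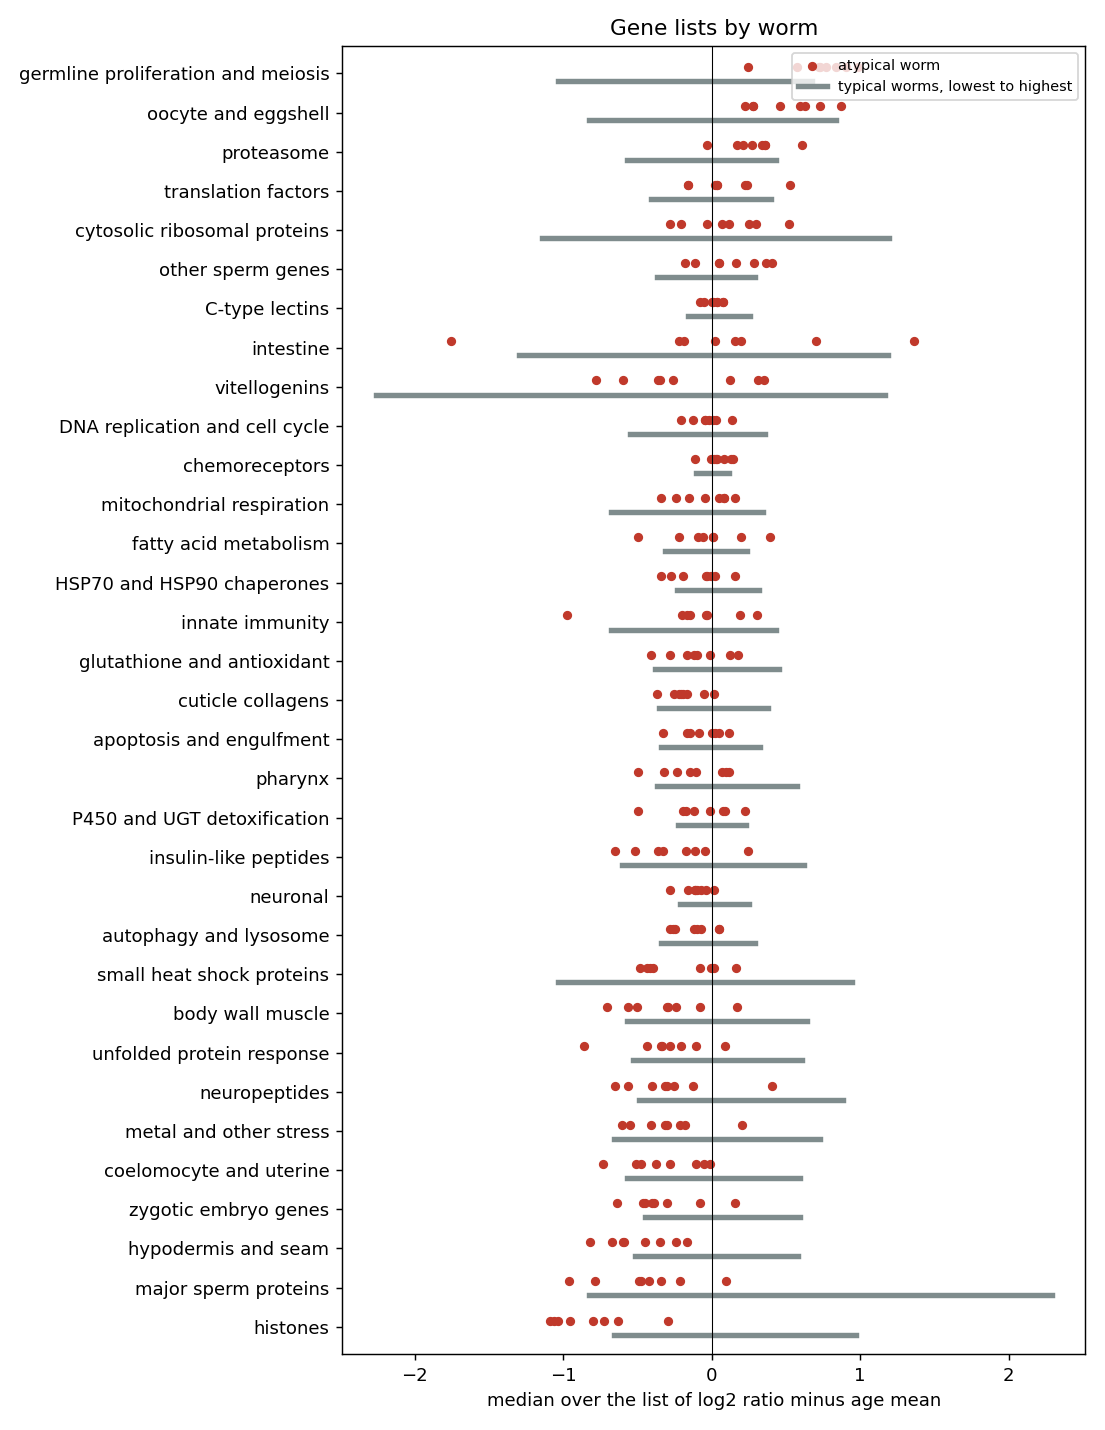
Median over each gene list of the log2 ratio minus the age mean (horizontal axis) for 33 lists, with the 8 atypical worms as red points above the range of typical worms in grey. The germline and oocyte points all lie above 0, from 0.22 upward, the histone points all lie below -0.28, and the intestine points spread from -1.76 to 1.36.

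Members of several lists that were lower lay on the X chromosome. X-linked genes entered the choice of worms like all others, so the values by chromosome are a description and no test. Of the 1506 lower genes, 380 were X-linked (25.2%), as were 18 of the 368 higher genes (4.89%), beside 2464 of all 18889 genes (13.04%). Among X-linked genes 15.4% were at least 1 log2 unit lower in atypical worms, against 5.78% to 7.69% on the 5 autosomes. The median difference was -0.27 on the X chromosome and between -0.04 and 0.05 on the autosomes. After quantile normalization it was -0.19 on the X chromosome and 0.04 to 0.12 on the autosomes.

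Worm by worm, the median deviation of X-linked genes was -0.24, -0.02, -0.36, -0.19, -0.47, -0.33, -0.20 and -0.30 in atypical worms, in order of age. In typical worms it ran from -0.29 through 0.07 to 0.23. All 8 atypical worms were negative, with day 14 replicate 15 near 0, and 25 of 66 typical worms were negative. The median ratio of X-linked genes was -0.20 in atypical worms, 0.09 in typical late worms and -0.04 on day 8. The germline list was higher in the same 8 worms, and the part of the germline in the X-linked values was not tested.

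**Figure D5:**
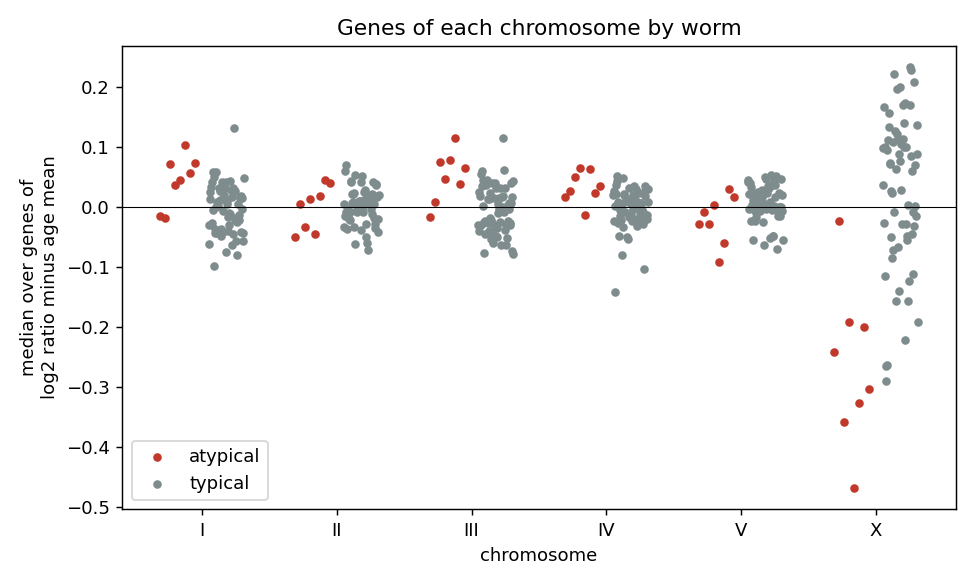
Median over the genes of each chromosome (horizontal axis) of the log2 ratio minus the age mean (vertical axis), atypical worms in red left of typical worms in grey. On the X chromosome the atypical worms lie between -0.47 and -0.02, and on each autosome all of them lie within 0.12 of 0.

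The lower genes of the respiration and translation lists were few, at 4 of 50 (8.00%) and 4 of 40 (10.0%), close to the 7.97% over all genes, and are described by chromosome only. All 4 lower respiration genes are X-linked, as are 6 of the 50 on the list, namely gas-1 of complex I (-1.19 ± 0.82), ucr-2.1 of complex III (-1.09 ± 0.56) and the ATP synthase genes asb-2 (-1.21 ± 0.90) and asg-2 (-1.48 ± 0.94). In gas-1 the atypical worms had -1.30, 0.56, -2.09, -1.11, -1.69, -1.39, -2.04 and -1.92, so that day 14 replicate 15 alone was above the pool. Of the 4 lower translation factor genes, the elongation factor gene eef-1A.2 (-2.002 ± 1.02), the poly(A)-binding protein gene pab-2 (-1.32 ± 0.51) and the cap-binding gene ife-4 (-1.23 ± 0.77) are X-linked, as are 4 of the 40 on the list, and eif-3.G (-1.95 ± 0.38) is on chromosome II.

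Each atypical worm also had extreme values of its own. The 5 highest and 5 lowest named genes of each worm made 80 entries for 78 different genes. Of these entries 75 lay outside the range of all typical worms, which a pick of extremes favours. The same pick was not made for typical worms, so nothing is read from that count. The pick ran over genes with a gene name only. The chemoreceptor list held 19 of the 78 genes, and it counts 1250 genes beside 10826 genes with a gene name. The genes given next rest on 1 probe each. In day 14 replicate 15, dct-7 had a ratio of 10.55 and nssp-1 a deviation from the age mean of -10.66, while deviations of dct-7 in the other 7 atypical worms were -1.76 to 0.02. In day 16 replicate 12, unc-31, which encodes a protein of neuropeptide release, had a ratio of -8.94, and the other 7 had ratios from -1.64 to 1.58. In day 16 replicate 13, the ammonium transporter gene amt-2 had a ratio of 7.91, and acr-9, of the acetylcholine receptor family, one of -10.2. Such values belong to 1 worm and 1 probe, with no second reading.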

How the data were processed

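Ratios of 22490 probes on 104 arrays with 2 colours, 1 worm per array, were used as deposited by the authors, and they are read as log2 of worm over pool. Per the submitters' processing notes limma was used, with no version given, and background correction and normalization are not named there. The authors' 2 deposited tables of these ratios held identical values. Per array 9 to 464 probes had no value, which limits the precision together with the number of worms, as intensities and depth are unknown.

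Probes were matched to RefSeq names (assembly WBcel235) by sequence name, 21382 of them with success, and averaged by gene to 18889 genes, 10826 with a gene name, 7091 named by sequence alone and 972 left unmatched. The choice of worms, centring and differences were computed in Python 3.11.15 with numpy 2.4.6 and pandas 2.3.3, with a scaled MAD of 1.4826 times the MAD. The difference of a gene is the mean of atypical minus that of typical worms after centring on the age mean, and 1 log2 unit is the line for counts. The scripts were tested on simulated data. Named genes are the 12 highest and 12 lowest with a gene name, a value in all atypical worms and the same sign in 80% of them, the 5 highest and 5 lowest of each worm, up to 4 of each list with the largest difference, and 19 genes kept throughout, of which those that add values are printed. The members, the 33 lists, the 9 marker lists and the alternatives were chosen with earlier results of these data known. Nothing says that worms of an age came from separate plates. Alternatives covered the threshold, correlation, centring, quantile normalization, single probes and leaving out worms or ages.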

Additional observations from a re-analysis of the deposited data

Results flagged for a closer look

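In 8 of 155 sets of 7 to 9 worms examined, 1 worm stood off from the rest by more than Dixon's critical value, and chance gives about 1 in 20. Relative to the age mean, oma-1 was 1.56 in day 24 replicate 5 and ges-1 was -1.73 in day 16 replicate 12. In day 14 replicate 15, gas-1 was 0.84 and pdi-2 was 0.038, with the other 7 worms lower in both. In day 16 replicate 12, unc-31 was -8.73 and the innate immunity list had a median of -0.97. In day 12 replicate 12, msp-10 was -3.95 and cysl-2, a cysteine synthase family gene, was -4.04. Between the atypical worms of day 14 and those of day 16, no named gene among those tried was wholly above the age mean on one day and wholly below it on the other.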

How the results depend on the processing

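The number of atypical worms was 6 to 8 under the alternatives. Day 14 replicate 15 was lost at 3.5 scaled deviations, when listed genes were left out, when ratios were centred per gene over all arrays (which also lost day 12 replicate 12), and when the median replaced the mean over other worms (which added day 24 replicate 9). Leaving out any 1 worm gave 341 to 462 higher and 1442 to 1765 lower genes. Quantile normalization gave 549 higher and 1069 lower genes, so that 33.9% of called genes were higher, against 19.6% in the values reported, with a median difference over all genes of 0.04. Without all worms of day 16, 213 of the 368 higher and 1096 of the 1506 lower genes were shared. Of 87 named genes past 1 log2 unit, the sign held in all 1218 values under alternatives, and 1180 stayed past it. The distance between probes of 1 gene exceeded the age mean by 0.012, by 0.015 at 3.5 scaled deviations (adjusted exact p = 0.0194), and by 0.0088 to 0.015 when 1 worm was left out (0.0208 to 0.320). Single probes and the lone reference pool limit all values. No paired analysis was possible because replicate numbers only name the worms.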
